A study of Mus musculus with 6 samples.

Results

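MHC class I antigen presentation in the mouse brainstem was described with 10 genes, picked by symbol from the 18058 genes of the deposited table: the heavy chain genes H2-D1, H2-K1 and H2-T23, the light chain gene B2m, the peptide transporter genes Tap1 and Tap2, the loading chaperone gene Tapbp, the immunoproteasome subunit genes Psmb8 and Psmb9, and the transactivator gene Nlrc5. All 10 were found, and all 10 had a mean of at least 0.1 CPM (gene counts scaled to the size of the library). The genes were selected on their role and with the difference between the genotypes in these same libraries already known. Their values in that comparison are therefore given as a description, without a test.

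RNA was sequenced from snap-frozen brainstems of 1-month-old mice, 3 of them wild type (WT, C57BL/6J) and 3 Rag1-/-, each library from a separate mouse that had received no injection. Rag1 encodes a subunit of the enzyme that joins antigen receptor gene segments, and mice without it lack mature T and B cells. The line listed in the methods, B6.129S7-Rag1tm1Mom/J, carries a germline knockout, so that every cell of the animal carries the allele. The comparison asks how brainstem transcripts differ when mature lymphocytes are missing. The steps between low values put the estimated depth between 31560000 and 46430000 reads per library, at which 3 reads equal 0.0646 to 0.0951 CPM. Rag1 itself was at 0.115 to 0.388 CPM in WT and at 2.60 to 4.02 CPM in the other 3 libraries, a direction opposite to that of a lost transcript, so that the latter are called the libraries labelled Rag1-/- and every direction below depends on that label. Xist, the X-inactivation transcript of female cells, reached 172 and 177 CPM in the first and second WT libraries but 2.93 CPM in the third, and stayed under 1 CPM wherever the label was Rag1-/-. Genotype and Xist level were thus partly confounded. The 5 neuron markers summed to 2968 to 3241 CPM and the 6 hindbrain markers to 33.9 to 126 CPM, against 2.43 to 3.87 CPM for the 3 forebrain markers. Replicate 2 labelled Rag1-/- stood apart in the hindbrain Hox genes. Hoxb5 was at 0.855 CPM there and at 4.77 to 14.3 CPM elsewhere, Hoxb3 at 0.412 against 2.501 to 7.86 CPM, and Hoxa3 at 0.0951 against 1.11 to 2.75 CPM.

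MHC class I molecules display peptides from a cell's own proteins to CD8 T cells and to receptors of natural killer cells. Proteins are cut by the proteasome, whose immune form carries exchanged catalytic subunits, the peptides are pumped into the endoplasmic reticulum by the TAP transporter, and tapasin helps to load them onto a heavy chain paired with β2-microglobulin. Interferons raise the transcription of the whole pathway, in part through NLRC5. Class I transcripts are scarce in resting neurons compared with microglia and endothelial cells, and in bulk tissue fewer cells of a type and less RNA per cell cannot be told apart.

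The stretches of DNA just before the transcript starts are shown first because they carry the elements by which class I genes are known to be regulated. RefSeq promoters (GRCm38.p6, the assembly behind mm10) were matched for 8 of the 10 genes, with Nlrc5 and Tap2 as the exceptions. The 250 bases before the start of the heavy and light chain genes are printed 5′ to 3′ on the gene's own strand, with capitals for matches to an NF-kappaB site or to either of the interferon-response forms described next. They lie at chr17:35262844-35263093 (plus strand) for H2-D1, chr17:34000348-34000597 (minus strand) for H2-K1, chr17:36032702-36032951 (minus strand) for H2-T23 and chr2:122147437-122147686 (plus strand) for B2m.
H2-D1: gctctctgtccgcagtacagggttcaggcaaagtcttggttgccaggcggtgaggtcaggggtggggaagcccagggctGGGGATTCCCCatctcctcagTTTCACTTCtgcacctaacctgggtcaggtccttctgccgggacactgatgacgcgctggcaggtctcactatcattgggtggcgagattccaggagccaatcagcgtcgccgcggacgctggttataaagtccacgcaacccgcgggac
H2-K1: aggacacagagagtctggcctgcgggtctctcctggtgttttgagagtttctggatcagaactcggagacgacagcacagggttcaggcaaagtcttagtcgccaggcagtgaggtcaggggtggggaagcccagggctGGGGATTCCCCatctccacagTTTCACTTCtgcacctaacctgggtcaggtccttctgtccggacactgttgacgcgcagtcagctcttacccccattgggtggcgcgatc
H2-T23: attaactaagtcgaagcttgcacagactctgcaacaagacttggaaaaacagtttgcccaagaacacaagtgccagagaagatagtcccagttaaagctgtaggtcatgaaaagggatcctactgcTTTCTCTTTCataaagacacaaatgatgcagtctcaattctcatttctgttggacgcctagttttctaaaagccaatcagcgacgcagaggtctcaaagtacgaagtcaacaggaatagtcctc
B2m: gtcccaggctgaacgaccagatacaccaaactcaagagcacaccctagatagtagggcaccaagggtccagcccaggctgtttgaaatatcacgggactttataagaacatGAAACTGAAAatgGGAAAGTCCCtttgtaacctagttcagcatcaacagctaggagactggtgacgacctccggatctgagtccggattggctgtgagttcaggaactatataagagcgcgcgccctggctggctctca

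The core of the interferon-stimulated response element, searched as GAAANNGAAA on both strands, was found before B2m, 139 to 130 bases from the start, and before H2-T23, 124 to 115 bases from the start. Of all 32851 RefSeq promoter windows of this length, 2.98% held it. The H2-D1 and H2-K1 windows did not hold that core, but both held GAANTGAAA, a looser form chosen after these windows had been read, which 1.501% of all windows held. It lay 150 to 142 bases before the start of H2-D1 and 90 to 82 bases before that of H2-K1. Each of these was preceded by NF-kappaB sites, at 171 to 161 and 111 to 101 bases from the start, where 2 matches overlapped and were found on both strands, and B2m held an NF-kappaB site at 126 to 117 bases, against 7.25% of all windows. The H2-D1 and H2-K1 windows were alike: shifted by 60 bases, 166 of 190 aligned bases (87.4%) were identical. A gamma-activated site, searched as TTCNNNGAA, was found only before Psmb8, 97 to 89 bases from the start (7.02% of all windows). The box CCAAT was found before 7 of the 8 genes, all but Psmb8 (33.8% of all windows). A match is a description of the letters and not of a bound site.

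**Figure D1:**
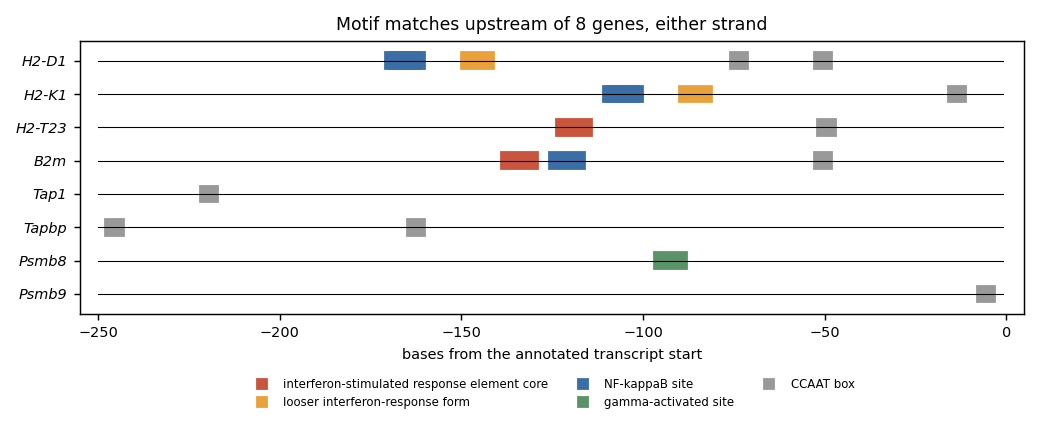
Positions of motif matches on either strand in the 250 bases before the annotated start of 8 genes, with the x axis in bases from the start and each row a gene. H2-D1 and H2-K1 show the same pair of NF-kappaB site and looser interferon-response form 60 bases apart in position, B2m and H2-T23 hold the response element core, and Tap1, Tapbp and Psmb9 hold the CCAAT box alone.

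Of the 10 genes, 8 lie on chromosome 17 within 2.11 Mb, B2m lies on chromosome 2 at 20.5 Mb from Rag1, and Nlrc5 lies on chromosome 8. Psmb9, Tap1, Psmb8 and Tap2 follow each other within 34.2 kb. Psmb9 and Tap1 are read in opposite directions from starts that are 225 bases apart, and this interval (chr17:34187331-34187555, plus strand) is shown because both genes are read from it. In the deposited CPM the groups were apart for Tap1, by less than 3 reads, and overlapped for Psmb9, and with either rescaling described later they overlapped for both. Capitals mark its CCAAT box, which is the match found before both genes.
Psmb9-Tap1 interval: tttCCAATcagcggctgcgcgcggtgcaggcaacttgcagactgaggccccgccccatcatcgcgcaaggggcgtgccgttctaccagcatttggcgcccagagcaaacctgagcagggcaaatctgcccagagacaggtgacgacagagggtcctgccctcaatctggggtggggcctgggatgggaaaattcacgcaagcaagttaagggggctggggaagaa

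H2-D1, which encodes a classical heavy chain (chr17:35263094-35267497, plus strand), measured 65.4, 73.1 and 66.7 CPM in the WT libraries, in the order of their replicate numbers, and 46.8, 49.9 and 50.9 CPM in those labelled Rag1-/-. The groups did not overlap, and the lowest WT library stood 14.6 CPM above the highest library labelled Rag1-/-. The means were 68.4 ± 4.11 CPM (SD, n = 3) and 49.2 ± 2.11 CPM (SD, n = 3), a change of -28.1% in the mean, with a log2 difference on the log2(CPM + 0.1) scale of -0.47 (standard error 0.056, labelled Rag1-/- minus WT). H2-K1, the other classical heavy chain gene (chr17:33996012-34000347, minus strand), was at 37.8, 43.4 and 35.1 CPM in WT and at 28.9, 29.6 and 31.9 CPM across the libraries labelled Rag1-/-, again without overlap. Its means were 38.8 ± 4.22 CPM and 30.1 ± 1.56 CPM (SD, n = 3 each), and its log2 difference was -0.36 (standard error 0.080). H2-T23 (chr17:36029977-36032701, minus strand), which encodes Qa-1, a non-classical heavy chain bound by natural killer cell receptors, was at 7.80, 9.49 and 8.02 CPM in WT and at 7.19, 6.002 and 6.68 CPM across the libraries labelled Rag1-/-. Its groups were separate by 0.609 CPM and its log2 difference was -0.34 (standard error 0.11).

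B2m, the gene of the light chain that all class I heavy chains need to reach the cell surface (chr2:122147687-122153082, plus strand), had the highest level of the 10. It was at 108, 126 and 104 CPM in WT and at 87.7, 94.0 and 93.4 CPM across the libraries labelled Rag1-/-. All 3 of the latter were under the lowest WT library, the means were 112 ± 11.7 CPM and 91.7 ± 3.48 CPM (SD, n = 3 each), and the log2 difference was -0.29 (standard error 0.071). WT replicate 2 was the highest WT library for B2m and for all 3 heavy chain genes.

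**Figure D2:**
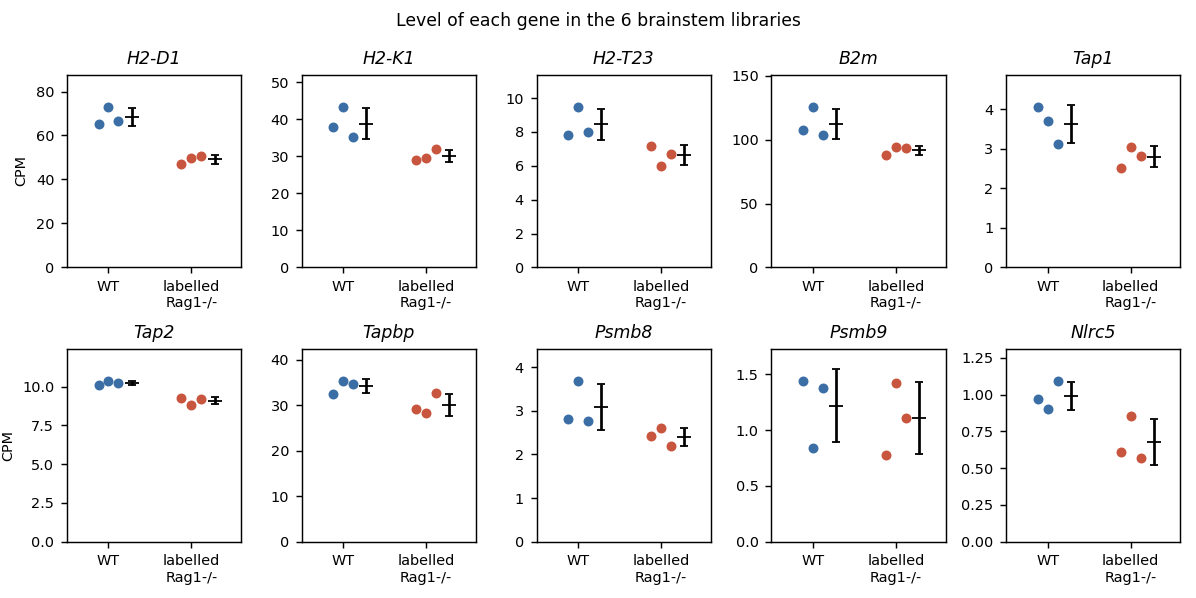
Level in CPM (y axis, from 0, a scale of its own for each gene) of the 10 genes in each library, replicates 1, 2 and 3 from left to right within WT (blue) and the libraries labelled Rag1-/- (red), with bars for mean ± SD (n = 3). The groups are apart for 8 genes and overlap for Tapbp and Psmb9.

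Tap1 and Tap2 encode the paired subunits of the peptide transporter. Tap1 (chr17:34187556-34197225, plus strand) was at 4.07, 3.70 and 3.11 CPM in WT and at 2.52, 3.05 and 2.83 CPM across the libraries labelled Rag1-/-, a log2 difference of -0.36 (standard error 0.14). The gap between its groups was 0.0581 CPM, less than the level of 3 reads. Tap2 (chr17:34204479-34216321, plus strand) was at 10.09, 10.36 and 10.23 CPM in WT and at 9.26, 8.83 and 9.22 CPM across the libraries labelled Rag1-/-. It varied least between replicates, with a coefficient of variation of 1.32% in WT and 2.62% in the libraries labelled Rag1-/-, and its difference was also small, at -0.17 on the log2 scale (standard error 0.068). Tapbp, the gene of tapasin (chr17:33919478-33929290, plus strand), was at 32.4, 35.3 and 34.7 CPM in WT and at 29.2, 28.2 and 32.7 CPM across the libraries labelled Rag1-/-. Its groups overlapped, because replicate 3 labelled Rag1-/- was above WT replicate 1, and its log2 difference was -0.19 (standard error 0.067).

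Psmb8 and Psmb9 encode catalytic subunits that replace Psmb5 and Psmb6 in the immunoproteasome. Psmb8 (chr17:34198195-34201454, plus strand) was at 2.81, 3.68 and 2.76 CPM in WT and at 2.43, 2.60 and 2.19 CPM across the libraries labelled Rag1-/-, a log2 difference of -0.34 (standard error 0.15). The groups were 0.161 CPM apart, and without WT replicate 2, its highest library, the log2 difference was -0.21. Psmb9 (chr17:34182099-34187330, minus strand) was at 1.44, 0.840 and 1.38 CPM in WT and at 0.780, 1.43 and 1.11 CPM across the libraries labelled Rag1-/-. The groups overlapped, with a log2 difference of -0.13 (standard error 0.27) that was 0.076 without replicate 1 labelled Rag1-/-, and its coefficient of variation was 27.1% in WT and 29.2% in the libraries labelled Rag1-/-. Thus WT replicate 2, the highest WT library for 7 of the 10 genes, was the lowest for Psmb9.

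Nlrc5, which encodes the transactivator of class I genes (chr8:94472763-94527272, plus strand), was the lowest of the 10, at 0.968, 0.905 and 1.09 CPM in WT and at 0.607, 0.855 and 0.570 CPM across the libraries labelled Rag1-/-. These levels equal about 38 to 42 reads in WT and 20 to 27 reads in the libraries labelled Rag1-/-. The groups were 0.0492 CPM apart, less than the level of 3 reads. Its log2 difference of -0.50 (standard error 0.20) was the largest of the 10 in size, and with a pseudocount of 1 in place of 0.1 it was -0.25. H2-D1 was larger in size than Nlrc5 in that fit (-0.47) and with quantile normalization (-0.43 against -0.38). The same held without WT replicate 3 (-0.49 against -0.43) and without replicate 3 labelled Rag1-/- (-0.498 against -0.40). In the other fits that held both genes, Nlrc5 was the larger.

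All 10 log2 differences were below 0, between -0.50 for Nlrc5 and -0.13 for Psmb9, with a median of -0.34. Over the 16762 genes that passed the filter of 0.1 CPM the median was -0.051, and 67.7% of them were below 0. Of the 10 genes, 8 were below every WT library in all 3 labelled Rag1-/-, beside 14.4% of all genes tested in this direction and 3.98% in the other. Since the genes were chosen with this contrast known, nothing is read from this count. The deposited scaling places most genes lower in the libraries labelled Rag1-/-. With median-of-ratios rescaling 52.1% of all genes were below 0, and 7 of the 10 class I genes, all of the 8 but Tap1, were lower without overlap beside 7.34% of all genes. With quantile normalization 49.1% of all genes were below 0, and 5 of the 10 were, beside 6.82% of all genes. These 5 were H2-D1, H2-K1, H2-T23, B2m and Tap2. Without replicate 2 labelled Rag1-/-, the library with few Hox transcripts, all 10 log2 differences were below 0, from -0.66 for Nlrc5 to -0.14 for Tapbp with a median of -0.33, and that of Psmb9 was -0.32 in place of -0.13. WT replicate 3, the WT library with little Xist, was above every library labelled Rag1-/- for 9 of the 10 genes, all but Psmb9. With a term for the libraries with over 100 CPM of Xist, which compares WT replicate 3 alone with the libraries labelled Rag1-/-, the log2 differences of the heavy and light chain genes were -0.44 for H2-D1, -0.22 for H2-K1, -0.28 for H2-T23 and -0.18 for B2m. Those of the other genes were -0.15 for Tap1, -0.17 for Tap2, -0.21 for Tapbp, -0.19 for Psmb8, -0.33 for Psmb9 and -0.64 for Nlrc5. Psmb9, Nlrc5 and Tapbp were thus larger in size than without the term, and the others were smaller or, for Tap2, about the same.

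**Figure D3:**
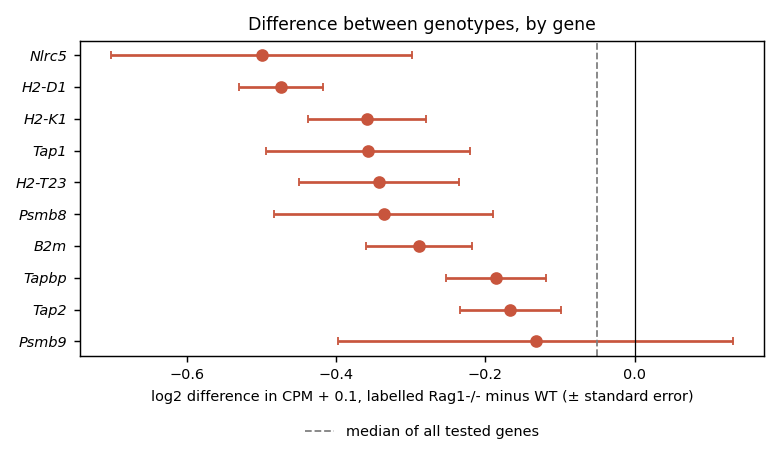
Log2 difference (x axis, labelled Rag1-/- minus WT, on the log2(CPM + 0.1) scale, bars for the standard error of limma-trend) of the 10 genes, ordered by size. All 10 points lie below 0, from -0.50 for Nlrc5 to -0.13 for Psmb9, and the dashed line marks the median of all tested genes at -0.051.

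Levels were compared between genes per length, as CPM per kilobase of the longest protein-coding transcript in GENCODE M21. In WT, B2m was at 131 CPM per kb, H2-D1 at 32.5, H2-K1 at 23.95, Tapbp at 11.8, H2-T23 at 5.73, Tap2 at 2.97, Psmb8 at 1.89, Tap1 at 1.23, Psmb9 at 0.902 and Nlrc5 at 0.130. The order of the mean levels was the same in the libraries labelled Rag1-/-, and Tap1 and Psmb9 were the only neighbours in it whose libraries overlapped, in both genotypes.

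Ratios within a library do not depend on its scaling. H2-D1 stood to H2-K1 as 1.73, 1.68 and 1.90 in WT and as 1.62, 1.69 and 1.59 in the libraries labelled Rag1-/-, with overlap. The ratio of B2m to the summed CPM of the 3 heavy chain genes was 0.969, 0.999 and 0.946 in WT and 1.06, 1.10 and 1.04 in the libraries labelled Rag1-/-. It was higher in every library labelled Rag1-/- than across all WT libraries, so that the summed heavy chain CPM differed by more than B2m. H2-D1 made up the largest part of that sum, with a WT mean of 68.4 CPM against 38.8 for H2-K1 and 8.44 for H2-T23. B2m was not set against each heavy chain gene alone. Psmb8 was at 3.39%, 4.51% and 3.52% of the CPM of its standard counterpart Psmb5 in WT and at 2.99%, 3.28% and 2.79% in the libraries labelled Rag1-/-, without overlap. Psmb9 was at 0.947% to 1.69% of the CPM of Psmb6 in WT and at 0.842% to 1.61% in the libraries labelled Rag1-/-, with overlap. Psmb10, which replaces Psmb7 and is not among the 10, was at 20.5% to 22.2% of the CPM of Psmb7 in WT and at 20.3% to 21.7% in the libraries labelled Rag1-/-. Of the 3 immune subunits only Psmb8 was apart from WT in its ratio, and narrowly, with the nearest libraries at 3.28% and 3.39%. These ratios rest on 77 to 171 reads of Psmb8 per library. Whether the ratios differ from each other was not tested. The ratio of Tap1 to Tap2, the subunits of 1 transporter, was 0.304 to 0.403 in WT and 0.272 to 0.346 in the libraries labelled Rag1-/-, with overlap.

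**Figure D4:**
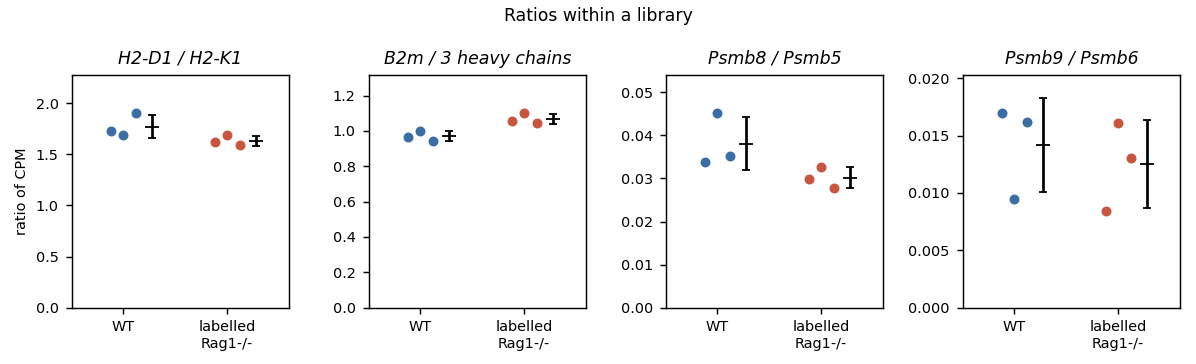
Ratio of CPM within each library (y axis, from 0), replicates 1, 2 and 3 from left to right in each group, with bars for mean ± SD (n = 3). B2m against the 3 heavy chain genes is higher, and Psmb8 against Psmb5 lower, in every library labelled Rag1-/- than across all WT libraries, whereas the other ratios overlap.

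Reads of the heavy chain genes can be shared. Of all 50-base windows of the longest transcript, 14.3% in H2-D1, 8.79% in H2-K1 and 28.8% in H2-T23 also occur in a transcript of another gene, against 0% in B2m, Psmb8, Psmb9 and Nlrc5, 2.00% in Tapbp, 0.861% in Tap1 and 0.737% in Tap2. H2-T23 lies within A930015D03Rik, which is read from the other strand and was at 0.239 to 0.952 CPM, and B2m lies within Patl2, also on the other strand, at 0.142 to 0.345 CPM. Whether the counting used strand is not given in the sources used here.

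The other genes of the pathway were taken from 7 lists that held none of the 10. Of their 97 genes, 81 passed the filter and were tested, 5 were under it and 11 are not analysed here. In the fit over all genes (limma-trend, Benjamini-Hochberg adjustment) none of the 81 had an adjusted p under 0.05, beside 0.0477% of all tested genes in either direction and 0.0358% lower. At an unadjusted p of at most 0.05, 13 of 81 (16.05%) were lower and 1 was higher in the libraries labelled Rag1-/-, beside 9.29% of all tested genes lower and 2.27% higher. With median-of-ratios rescaling 11 were lower and 6 higher, beside 4.11% and 5.06% of all genes, and with quantile normalization 8 were lower and 5 higher, beside 3.82% and 5.10%. The median log2 difference over the 81 was -0.069.

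Among 18 tested genes of the other class I heavy chains and class I-like molecules, 3 were lower at an unadjusted p of at most 0.05, beside 9.29% of all tested genes, and the median log2 difference was -0.16. With median-of-ratios rescaling 3 were lower, and with quantile normalization 2. H2-Q2 was at 1.62, 1.63 and 2.38 CPM in WT and at 0.973, 1.25 and 1.01 CPM across the libraries labelled Rag1-/-, a log2 difference of -0.73 with a standard error of 0.19 (limma-trend adjusted p = 0.331). H2-Q5 was at 0.256, 0.490 and 0.327 CPM against 0.118, 0.225 and 0.185 CPM (log2 difference -0.72, adjusted p = 0.413 by limma-trend). H2-Q9 was at 0.369, 0.181 and 0.349 CPM in WT, and in the libraries labelled Rag1-/- it was at 0.169 CPM in replicate 1 and near the file minimum, under 3 reads, in the others (adjusted p = 0.340 by limma-trend). These 3 genes did not overlap between the groups, but the gaps of H2-Q5 and H2-Q9 were less than the level of 3 reads. H2-Q9 (chr17:35439167-35443770) lies within H2-Q7 (chr17:35439155-35443773) on the same strand. The groups of H2-Q7 overlapped, with a log2 difference of -0.33, and how reads were divided between H2-Q9 and H2-Q7 is not known. At the other end, H2-M5 had a log2 difference of 0.18 (adjusted p = 0.834 by limma-trend), with libraries between 0.0961 and 0.206 CPM.

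In peptide loading and trimming, 3 of 14 genes were lower at an unadjusted p of at most 0.05, beside 9.29% of all tested genes, and 2 were with either rescaling. The median log2 difference was -0.068. The 3 were Uggt1, the sensor of folding glycoproteins, at -0.19, Ganab, a glucosidase subunit that trims their sugars, at -0.16, and the aminopeptidase gene Lnpep at -0.17, named after their values were seen, with adjusted p from 0.319 to 0.385 by limma-trend. The chaperone gene Tapbpl, a relative of tapasin, had the lowest log2 difference of this list, -0.20 (adjusted p = 0.450 by limma-trend), and the peptidase gene Lap3 the highest, 0.012 (adjusted p = 0.958 by limma-trend). None of the 5 immunoproteasome partners was at an unadjusted p of at most 0.05, and 1, Pomp, was higher with either rescaling. They ranged from -0.17 for Psme2, a subunit of the proteasome activator, to 0.085 for Pomp, the assembly factor, with adjusted p of 0.606 and 0.532 by limma-trend. In the 16 genes of the standard proteasome core and its other activators, the median was 0.015 and 1 gene was higher at an unadjusted p of at most 0.05, beside 2.27% of all tested genes (4 with median-of-ratios rescaling, Psma7, Psmb1 and Psmb2 being added, and 3 with quantile normalization, without Psmb1), the core subunit gene Psma4, at 45.1 to 46.5 CPM in WT and 47.8 to 51.9 CPM across the libraries labelled Rag1-/- (log2 difference 0.12, adjusted p = 0.395 by limma-trend). Psmb4 had the lowest log2 difference of that list, -0.080 (adjusted p = 0.471 by limma-trend).

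Of 17 regulators of class I genes, 5 were lower at an unadjusted p of at most 0.05, beside 9.29% of all tested genes, and 4 were with either rescaling, beside 4.11% and 3.82%. Irf7, an interferon regulatory factor, was at 5.76, 5.10 and 4.57 CPM in WT and at 3.03, 2.503 and 3.10 CPM across the libraries labelled Rag1-/-, without overlap (log2 difference -0.82 with a standard error of 0.13, limma-trend adjusted p = 0.165). Among the others, named after their values were seen, were Irf9 at -0.47 and Stat2 at -0.31, whose products carry the interferon signal to the nucleus, and Creb1 at -0.14, with adjusted p from 0.193 to 0.415 by limma-trend. Irf9 and Stat2 did not overlap between the groups and Creb1 did. The RFX and NF-Y subunit genes of the complex that NLRC5 joins, Rfx5, Rfxap, Rfxank, Nfya, Nfyb and Nfyc, also named after their values were seen, had log2 differences between -0.073 for Rfx5 and 0.0195 for Rfxank, each with overlap. Relb had the highest of the list, 0.097 (adjusted p = 0.814 by limma-trend).

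Transcripts of receptors for class I were near the floor. Of 4 tested, Cd160 was at 0.472, 0.409 and 0.460 CPM in WT and at 0.289, 0.158 and 0.285 CPM across the libraries labelled Rag1-/-, without overlap (log2 difference -0.69, standard error 0.25, adjusted p = 0.381 by limma-trend). Lilrb4a and Pirb overlapped, at -0.82 (adjusted p = 0.478 by limma-trend) and 0.18 (adjusted p = 0.804 by limma-trend). Of the 7 class II genes, which serve presentation to CD4 T cells, 1 was lower at an unadjusted p of at most 0.05, beside 9.29% of all tested genes. With median-of-ratios rescaling 1 was lower and 1 higher, and with quantile normalization 0 were lower and 1 was higher. The gene lower in the deposited CPM was H2-DMb1, a peptide exchange subunit. It had means of 1.22 CPM in WT and 0.876 CPM across the libraries labelled Rag1-/-, without overlap (log2 difference -0.45, adjusted p = 0.398 by limma-trend). Its partner H2-DMa had a log2 difference of 0.22 (adjusted p = 0.491 by limma-trend) and was higher without overlap, so that the subunits of this dimer differed in sign.

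**Figure D5:**
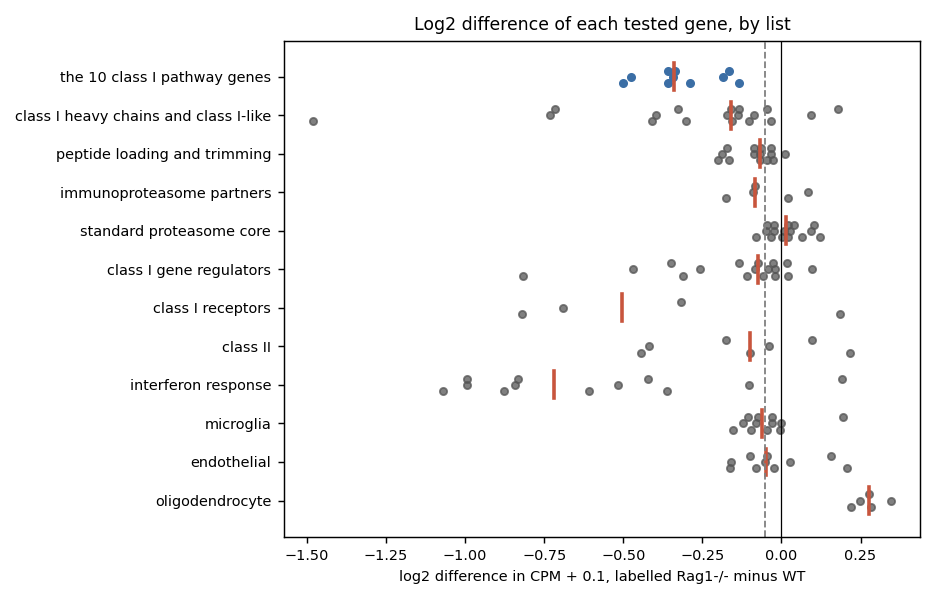
Log2 difference of each tested gene (x axis, labelled Rag1-/- minus WT, log2(CPM + 0.1) scale), a point per gene, by list, with red bars for the list median, a dashed line for the median of all tested genes and blue points for the 10 class I pathway genes. The medians are -0.34 for the 10 genes, -0.16 for other class I heavy chains, 0.015 for the standard proteasome, -0.72 for the interferon response, -0.061 for microglia and 0.28 for oligodendrocytes.

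Markers of cells that carry class I, and of interferon response, were read beside these values. Of the 12 interferon-response genes, 10 were lower without overlap, beside 14.4% of all tested genes, and 10 were lower at an unadjusted p of at most 0.05, beside 9.29%. The genes Ifit3 and Oasl2 were lower with an adjusted p under 0.05 by limma-trend. Under the rescalings 9 interferon-response genes were lower without overlap with median-of-ratios rescaling and 9 with quantile normalization. Their summed level was 57.6 to 65.1 CPM in WT and 35.9 to 41.2 CPM across the libraries labelled Rag1-/-. Microglia markers, 12 of 12 tested, summed to 356 to 384 CPM in WT and 344 to 372 CPM across the libraries labelled Rag1-/-. None was separate between the groups, and 1, C1qc, was lower at an unadjusted p of at most 0.05, against 0 with either rescaling. Endothelial markers, 10 of 10 tested, summed to 254 to 305 CPM and 269 to 292 CPM, with 3, Pecam1, Cdh5 and Ly6a, lower without overlap and 2 of these, Cdh5 and Ly6a, at an unadjusted p of at most 0.05. With either rescaling 0 endothelial markers were lower without overlap and 1 was higher. Of 9 T cell markers 2 passed the filter, and the 6 in the table summed to 0.862 to 1.84 CPM in WT and 0.954 to 1.45 CPM across the libraries labelled Rag1-/-, Cd3e being at or under 0.144 CPM in every library. Of 5 B cell markers 2 passed, Cd79a and Cd79b, each with overlap between the groups. The 4 in the table summed to 0.661 to 0.978 CPM in WT and 0.444 to 0.627 CPM across the libraries labelled Rag1-/-. Ms4a1 was at the file minimum of 0.0001 CPM in all libraries labelled Rag1-/-, but also near the level of 3 reads in WT, at 0.0473, 0.108 and 0.0863 CPM. All 5 oligodendrocyte markers were higher without overlap, beside 3.98% of all tested genes, and at an unadjusted p of at most 0.05, beside 2.27%, and 5 and 3 of them were higher without overlap with median-of-ratios rescaling and quantile normalization. They had summed levels of 17748 to 20793 CPM in WT and 23088 to 24417 CPM across the libraries labelled Rag1-/-. Astrocyte markers, 6 of 6 tested, summed to 3747 to 4019 CPM and 4052 to 4171 CPM, ranges that did not overlap, with 1, Aqp4, higher at an unadjusted p of at most 0.05 and 1, Slc1a2, higher without overlap. The other 4 overlapped, with log2 differences of -0.12 for Gfap, -0.12 for Slc1a3, 0.015 for Aldh1l1 and 0.060 for Aldoc, and Slc1a2 alone made up the largest part of each sum. With either rescaling 2 astrocyte markers were higher without overlap, and 2 were higher at an unadjusted p of at most 0.05. The part of any of these in the class I values was not tested.

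The genes whose pattern was most like the mean pattern of the 10 were Rasa3, Eif4h, Amacr, Zfp3 and Hnrnpul2, among 14024 others that averaged 1 CPM or more. Likeness was the mean absolute difference between z-scores over the 6 libraries, from 0.0658 for Rasa3 to 0.108 for Hnrnpul2. Each was below every WT library in all 3 labelled Rag1-/-, beside 14.4% of all tested genes. Nothing is read from this, because the choice by likeness to the 10 favours such a pattern. Their log2 differences ran from -0.20 for Amacr to -0.062 for Eif4h, smaller in size than the median of the 10.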

How the data were processed

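Total RNA from 6 brainstems was sequenced. With STAR 2.5.3a and RefSeq Transcripts 83, the authors mapped reads onto mm10, counted them per gene in Partek Flow 8.0 and deposited CPM, to each of which 0.0001 was added; filters before deposit are not stated. The end of a gene is given as 1 base before the deposited stop. The smallest steps in each column gave its depth. Only 84.3% to 86.3% of low values lay within 0.1 of a whole read, too few for a count test. Floors cover counting error only.

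From these, log2(CPM + 0.1) was tested with limma-trend (limma 3.58.1, R 4.3.3) for 16762 genes averaging 0.1 CPM or more, with Benjamini-Hochberg adjustment over all of them. The fit was checked on simulated data. The 3 samples per group are separate mice. The 10 genes, the lists and the settings were chosen with earlier results of these data known. Genes were named by rule if among the 10, or in a pathway list with an adjusted p under 0.05 or a log2 difference of 0.5 or more in size at an unadjusted p up to 0.05, or otherwise an extreme of its list, or among the 5 most alike. Marker genes, and pathway genes outside the rule, were named after their values were seen. The values of 1 pathway gene are not reported here. Counts per list under the rescalings were added after seeing the data. Alternatives were pseudocounts of 1 and 0.01, no filter, a minimum mean of 1 CPM, median-of-ratios and quantile scaling, no trend, a replicate block, a term for Xist, and leaving out each library. Transcript windows came from GENCODE M21 and promoters from RefSeq GRCm38.p6.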

Additional observations from a re-analysis of the deposited data

How the results depend on the processing

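The log2 differences of the 10 genes kept their sign in 148 of 149 values over 15 alternative fits, and 143 moved by less than the SD between replicates; the exception was Psmb9, from -0.36 without WT replicate 2 to 0.076 without replicate 1 labelled Rag1-/-. H2-D1 ranged from -0.51 to -0.43, H2-K1 from -0.43 to -0.22, B2m from -0.34 to -0.18 and Nlrc5 from -0.66 to -0.25. The number of the 10 that were lower without overlap was 8, and 5 with quantile normalization; leaving out 1 library, which can only keep or raise this number, gave 8 to 9.

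Over all genes, 8 passed an adjusted p of 0.05. The number was 4 with pseudocount 0.01, 4 with no filter, 4 when a mean of 1 CPM was required, 2 without the trend, 5 (3 lower, 2 higher) under quantile normalization, 3 with the replicate block and 134 with the Xist term, and 1938 had an unadjusted p of at most 0.05. Median-of-ratios rescaling gave 6 (3 lower, 3 higher). Leaving out 1 library gave 2 to 24, the 24 without WT replicate 3, the 2 without replicate 1 or replicate 3 labelled Rag1-/-, and 5 without replicate 2 labelled Rag1-/-. Of the other pathway genes 0 were called in every fit, and 14 at an unadjusted p of at most 0.05 (10 to 15 without 1 library, 12 with the replicate block). The causes were not tested. Deviations from the group mean of samples that bear the same number had correlations of 0.0926, -0.220 and -0.0183. Samples with different numbers were not compared in this way, and whether those with the same number were handled together was not tested. Depth limits Nlrc5 and Psmb9 most, at 20 to 61 reads per library.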
